A study of Mus musculus with 12 samples.

Results

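TGF-β ligands, receptors and SMAD regulators are described here as 9 named genes, Tgfb1, Tgfb3, Tgfbr1, Tgfbr2, Tgfbr3, Smad3, Smad7, Ski and Skil. They were taken by symbol from a count table of 25899 genes. The cells were intraepithelial lymphocytes (IEL) sorted from the small intestine of Rag2-/- mice, hosts that lack T and B cells of their own. Each host had received at least 2000000 lymph node T cells of Themis WT donors in the blood 1 week earlier. Hosts of CD4+ T cells gave TCRβ CD8αα+ cells, called CD8αα from CD4, and TCRβ CD4+ cells, called CD4 IEL. Hosts of CD8αβ+ T cells gave TCRβ CD8αα+ cells, called CD8αα from CD8αβ, and TCRβ CD8αβ+ cells, called CD8αβ IEL. By the labels all groups therefore shared a lymphopenic host and wild-type donor cells, and no change in a TGF-β gene is named for any. That the sorted cells came from the donors was not tested. Each of the 4 groups had 3 bulk RNA-seq libraries. The labels give no age of the mice and do not say that replicates were separate animals, so the p-values cover the spread of these libraries alone, which may be technical. Within both CD8αα groups the replicates differed in sex-linked transcripts (below), so those were not all copies of 1 sample.

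TGF-β is secreted in a latent form, is cut by the protease furin and is released from its latency protein by integrins or other factors. The freed dimer binds the type II receptor (Tgfbr2), which engages and phosphorylates the type I receptor (Tgfbr1). The type I receptor in turn phosphorylates SMAD2 and SMAD3, which join SMAD4 in the nucleus. The pathway is restrained by SMAD7 at the receptors and by the corepressors SKI and SKIL on SMAD complexes. In intestinal T cells TGF-β is known for inducing Itgae, the CD103 chain that binds E-cadherin, and for favouring regulatory T cells and CD8αα expression.

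Library totals were 5620257 to 11070734 counts, and where a library had 0 reads of a gene the level may still be up to 3 counts, or 0.271 to 0.534 CPM. CPM are counts per 1000000 of a library total scaled by TMM. Among the 6 libraries labelled CD8αα, 4 (CD8αα from CD4 replicates 1 and 2, CD8αα from CD8αβ replicates 1 and 3) had Xist at 373 to 645 CPM and summed Y-linked transcripts of at most 1.03 CPM. The other CD8αα libraries and all 6 companions had Y-linked transcripts at 234 to 449 CPM. The labels give no sex, and calls that were lost without the 4 libraries are named beside the results. Of 12 T cell markers, 11 were lower and 1 higher in CD8αα from CD4 than in CD4 IEL, and 10 were lower and 1 higher in CD8αα from CD8αβ than in CD8αβ IEL. Among all genes tested 13.5% and 15.1% were lower in these comparisons, and 15% and 16.1% higher. Although the label names TCRβ, Cd3e was at 3.21 to 12.8 CPM in CD8αα from CD4, against 505 to 639 CPM in CD4 IEL. It was at 14.1 to 22.2 CPM in CD8αα from CD8αβ, against 403 to 574 CPM in CD8αβ IEL. The part of the sex-linked and T cell marker differences in the results below was not tested. Group names and the word progeny follow the labels, and descent was not tested. In sorted bulk cells, fewer cells of a type and less RNA per cell cannot be told apart.

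All 9 genes passed the filter on low counts, and their levels differed between groups in a few distinct ways. In both progenies the CD8αα libraries had more Tgfb3 and Tgfbr1 transcript than their CD4 or CD8αβ companions, less Tgfbr3 and Skil, and nearly no Smad3. In the CD4 progeny (CD8αα from CD4 over CD4 IEL) 6 of the 9 were called, 2 higher and 4 lower, at an adjusted p under 0.05 (edgeR quasi-likelihood, Benjamini-Hochberg over 12622 genes). Of all genes tested 28.5% were called there, 15% higher and 13.5% lower. In the CD8αβ progeny (CD8αα from CD8αβ over CD8αβ IEL) 6 were called, 2 higher and 4 lower, against 31.2% of all genes, 16.1% higher and 15.1% lower. The libraries of the compared groups did not overlap for 8 of the 9 genes in the CD4 progeny, against 45.7% of all genes, and for 7 in the CD8αβ progeny, against 43.8%. The median log2 fold change of the 9 genes was −0.73 in the CD4 progeny, against 0.024 for all genes, and −0.39 in the CD8αβ progeny, against −0.003. With only the CD8αα libraries that had Y-linked transcripts, 1 per origin, 2 of the 9 (Tgfb3 and Smad3) were called in the CD4 progeny and 3 (Tgfb3, Tgfbr3 and Smad3) in the CD8αβ progeny. That fit assumes that the lone library varied like the other groups, and the share of all genes called in it is not given here.

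**Figure D1:**
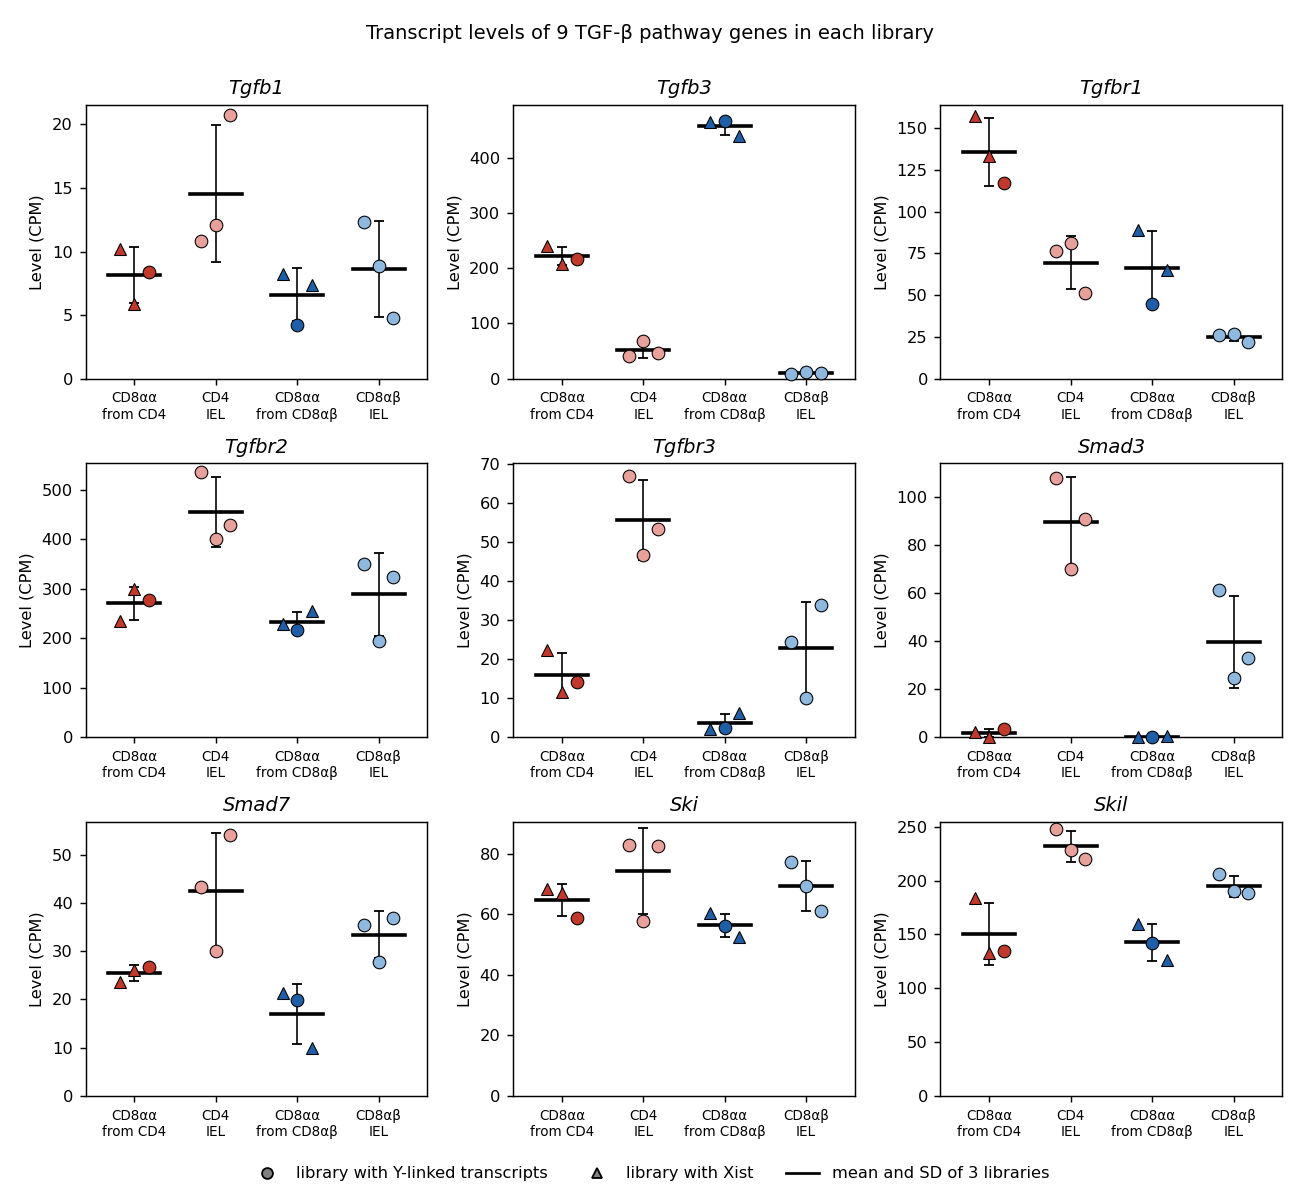
Levels of the 9 genes in each of 12 libraries, in CPM on linear axes that start at 0, with 1 panel per gene and the groups on the horizontal axis; bars are the mean and SD of 3 libraries, circles libraries with Y-linked transcripts and triangles libraries with Xist. Tgfb3 stood at 439 to 466 CPM in CD8αα from CD8αβ and at 8.6 to 12.7 CPM in CD8αβ IEL, and Smad3 at no more than 3.28 CPM in any CD8αα library.

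Promoter windows of 250 bases before the annotated start were taken from RefSeq (GRCm38.p6, the mm10 assembly) for 5 of the 9 genes. The 3 below are shown because they belong to the type I receptor that was higher in the CD8αα libraries, the type II receptor that was lower in CD8αα from CD4, and the SMAD that was nearly at 0 in both. Capitals mark the letters CAGAC, the SMAD box, searched on both strands.
Tgfbr1 (chr4:47352972-47353221, plus strand): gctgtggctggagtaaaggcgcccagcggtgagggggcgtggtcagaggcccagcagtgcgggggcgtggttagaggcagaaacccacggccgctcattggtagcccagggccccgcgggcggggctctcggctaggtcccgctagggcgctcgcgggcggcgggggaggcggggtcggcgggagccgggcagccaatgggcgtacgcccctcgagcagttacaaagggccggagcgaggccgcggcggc
Tgfbr2 (chr9:116175364-116175613, minus strand): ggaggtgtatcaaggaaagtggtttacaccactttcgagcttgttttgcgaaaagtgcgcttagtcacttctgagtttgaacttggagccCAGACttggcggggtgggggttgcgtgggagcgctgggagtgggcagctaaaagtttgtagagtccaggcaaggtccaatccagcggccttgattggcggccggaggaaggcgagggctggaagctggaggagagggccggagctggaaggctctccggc
Smad3 (chr9:63757995-63758244, minus strand): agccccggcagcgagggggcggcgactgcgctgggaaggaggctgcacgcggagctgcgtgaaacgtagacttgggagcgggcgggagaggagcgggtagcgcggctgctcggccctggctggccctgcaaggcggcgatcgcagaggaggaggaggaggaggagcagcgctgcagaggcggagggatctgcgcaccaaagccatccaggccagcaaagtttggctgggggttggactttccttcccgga
The SMAD box occurred once in the Tgfbr2 window, starting 160 bases before the start site, and the letters were not in the Tgfbr1 and Smad3 windows. A second Tgfbr1 window, of another annotated start (chr4:47385966-47386215), held 1 SMAD box, and the windows of Tgfb1 and Ski held 0. Of 32851 mouse promoter windows of this length 42.2% held the SMAD box, 0.167% its palindrome GTCTAGAC and 14% the RUNX core TGTGGT. Neither of the last 2 was in any window of the 5 genes searched. The promoters of Tgfb3, Tgfbr3, Smad7 and Skil were not searched, so nothing is known here of these motifs in them.

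Tgfb3 was the ligand transcript that differed most. It encodes TGF-β3, is annotated as ENSMUSG00000021253 and lies on chromosome 12 of mm10, 86056744 to 86079041, on the minus strand. In replicates 1, 2 and 3 Tgfb3 was at 240, 208 and 217 CPM in CD8αα from CD4, against 41.5, 68 and 46.9 CPM in CD4 IEL. It was at 465, 466 and 439 CPM in CD8αα from CD8αβ, against 8.6, 12.7 and 9.88 CPM in CD8αβ IEL. No 2 of the 4 groups overlapped, and every CD8αα library stood above every companion library. Tgfb3 rose in the CD4 progeny by 2.09 ± 0.19 (log2, SE, edgeR adjusted p = 2.11e-06), a 4.25-fold difference. In the CD8αβ progeny it rose by 5.45 ± 0.22 (edgeR adjusted p = 2.92e-09), a 43.7-fold difference and the third smallest p of 12622 genes. Over 20 alternative fits the log2 fold change was 1.93 to 2.31 in the CD4 progeny and 5.33 to 5.63 in the CD8αβ progeny, with the call kept in each. The CD8αα libraries with Y-linked transcripts were at 217 CPM (CD4 progeny) and 466 CPM (CD8αβ progeny).

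The change in Tgfb3 differed between the progenies by −3.36 ± 0.27 (log2, CD4 progeny minus CD8αβ progeny, edgeR interaction adjusted p = 1.58e-05), and it was the sixth smallest p of all genes. It was the only one of the 9 genes called in that test, where 2.56% of all genes were called, 1.2% above 0 and 1.35% below. Tgfb3 differed between the origins in both kinds of cell. In CD8αα from CD4 it was 2.06-fold lower than in CD8αα from CD8αβ (−1.04 ± 0.18, edgeR adjusted p = 0.00656), and in CD4 IEL it was 4.98-fold higher than in CD8αβ IEL (2.32 ± 0.20, edgeR adjusted p = 1.66e-05). The first of these calls was lost with 1 library per CD8αα group (−1.11, edgeR adjusted p = 0.64). The interaction was called in all 19 alternative fits, with the highest edgeR adjusted p at 0.0391. Antisense transcripts annotated within Tgfb3, which were not in the count table, share up to 7.6% of its exon bases, and the strand setting of the counting is not given in the sources used here.

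Tgfb1 (ENSMUSG00000002603, chromosome 7, 25687002 to 25705077, plus strand) encodes TGF-β1, the main isoform of lymphocytes. Its transcript was at 10.2, 5.84 and 8.43 CPM in CD8αα from CD4, against 10.8, 12.1 and 20.7 CPM in CD4 IEL. In the CD8αβ progeny it was at 8.23, 4.25 and 7.35 CPM in CD8αα from CD8αβ, against 12.3, 8.87 and 4.77 CPM in CD8αβ IEL. The first pair of groups did not overlap and the second did, and neither difference passed the test. The log2 fold change was −0.83 (95% interval −1.73 to 0.06, edgeR adjusted p = 0.158) in the CD4 progeny and −0.39 (−1.29 to 0.50, edgeR adjusted p = 0.53) in the CD8αβ progeny. Without CD4 IEL replicate 3 the first value was −0.50, and leaving out 1 library moved the second to between −0.73 and −0.05 (without CD8αβ IEL replicates 3 and 1). With CD8αα from CD8αβ replicate 2 as its only CD8αα library the second was −1.02 (edgeR adjusted p = 0.412). The intervals leave room for a more than 2-fold fall in either.

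Among the receptors the type I gene was higher in the CD8αα libraries, the co-receptor lower, and the type II gene lower in 1 progeny. Tgfbr1 (ENSMUSG00000007613, chromosome 4, 47353222 to 47414931, plus strand) was at 157, 133 and 117 CPM in CD8αα from CD4, against 76.2, 80.9 and 51.2 CPM in CD4 IEL. It was at 88.8, 44.9 and 64.8 CPM in CD8αα from CD8αβ, against 26.3, 26.7 and 22.1 CPM in CD8αβ IEL. Within each progeny the groups did not overlap, and CD8αα from CD8αβ lay at the level of CD4 IEL. Tgfbr1 rose 1.95-fold in the CD4 progeny (0.96 ± 0.24, edgeR adjusted p = 0.0076) and 2.64-fold in the CD8αβ progeny (1.40 ± 0.24, edgeR adjusted p = 6.15e-04). With only the CD8αα libraries that had Y-linked transcripts the values were 0.75 (edgeR adjusted p = 0.157) and 0.84 (edgeR adjusted p = 0.117).

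Tgfbr2 (ENSMUSG00000032440, chromosome 9, 116087698 to 116175363, minus strand) was the most abundant receptor transcript. It was at 234, 300 and 277 CPM in CD8αα from CD4, against 536, 401 and 428 CPM in CD4 IEL. In the CD8αβ progeny it was at 229, 216 and 256 CPM in CD8αα from CD8αβ, against 351, 194 and 323 CPM in CD8αβ IEL. CD8αβ IEL replicate 2 stood below all CD8αα libraries, so these groups overlapped. Tgfbr2 fell 1.69-fold in the CD4 progeny (−0.75 ± 0.20, edgeR adjusted p = 0.011), and in the CD8αβ progeny its log2 fold change was −0.31 (95% interval −0.73 to 0.12, edgeR adjusted p = 0.271). Without CD8αβ IEL replicate 2 the CD8αβ comparison was called (−0.53, edgeR adjusted p = 0.0205). The changes of the progenies did not differ by test (interaction −0.45 ± 0.28, edgeR adjusted p = 0.43). With 1 library per CD8αα group the fall in the CD4 progeny was −0.72 and not called (edgeR adjusted p = 0.241).

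Tgfbr3 (ENSMUSG00000029287, chromosome 5, 107106570 to 107289629, minus strand) encodes betaglycan, a co-receptor without kinase activity that presents ligand to the type II receptor. It was at 22.4, 11.5 and 14.2 CPM in CD8αα from CD4, against 66.9, 46.8 and 53.5 CPM in CD4 IEL. It was at 2.15, 2.34 and 6.21 CPM in CD8αα from CD8αβ, against 24.4, 10.1 and 33.9 CPM in CD8αβ IEL. The CD8αα libraries were lower throughout within each progeny, and those of the CD8αβ progeny were the lowest of all. Tgfbr3 fell 3.5-fold in the CD4 progeny (−1.81 ± 0.44, edgeR adjusted p = 0.00713) and 6.41-fold in the CD8αβ progeny (−2.68 ± 0.48, edgeR adjusted p = 7.20e-04). With 1 library per CD8αα group the first call was lost (−1.97, edgeR adjusted p = 0.0822).

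Smad3 had the largest fall of the 9 genes in both progenies. It encodes the SMAD that the type I receptor phosphorylates together with SMAD2 and that binds DNA at SMAD boxes (ENSMUSG00000032402, chromosome 9, 63646767 to 63757994, minus strand). Reads of Smad3 numbered 12, 0 and 21 in CD8αα from CD4, against 991, 537 and 608 in CD4 IEL. They numbered 3, 0 and 5 in CD8αα from CD8αβ, against 442, 236 and 200 in CD8αβ IEL. Replicate 2 of each CD8αα group had 0 reads, which allows up to 0.338 CPM in CD8αα from CD4 and up to 0.3 CPM in CD8αα from CD8αβ. As levels, Smad3 was at 1.78 ± 1.66 CPM in CD8αα from CD4, against 89.7 ± 19 CPM in CD4 IEL (SD, n = 3 each), and at 0.285 ± 0.287 CPM in CD8αα from CD8αβ and 39.7 ± 19.1 CPM in CD8αβ IEL. Every CD8αα library lay far below every companion library. The fall was −5.75 ± 0.69 in the CD4 progeny (edgeR adjusted p = 3.07e-05) and −7.08 ± 0.82 in the CD8αβ progeny (edgeR adjusted p = 1.92e-05). The size of the second rests on 8 reads in the CD8αα group. With replicate 2 as its only library, at 0 reads, the fitted value was −11.26, which depends on the prior count of the fit. The calls were kept in all 20 alternatives in each progeny. The CD8αα groups overlapped (2.51 ± 1.04, edgeR adjusted p = 0.206), so a difference in Smad3 between them was not detectable at this depth.

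Smad7 (ENSMUSG00000025880, chromosome 18, 75367529 to 75395935, plus strand) encodes the inhibitory SMAD that directs receptors to degradation and is itself induced by TGF-β. It was at 23.6, 26 and 26.8 CPM in CD8αα from CD4, against 43.2, 30 and 54.1 CPM in CD4 IEL. It was at 21.3, 19.9 and 9.88 CPM in CD8αα from CD8αβ, against 35.5, 27.8 and 36.9 CPM in CD8αβ IEL. The groups did not overlap in either progeny. Smad7 fell 1.95-fold in the CD8αβ progeny (−0.97 ± 0.28, edgeR adjusted p = 0.0187), and that call was lost without CD8αα from CD8αβ replicate 3 (edgeR adjusted p = 0.069), with only the groups compared in the fit (0.0506) and with 1 library per CD8αα group (0.288). In the CD4 progeny its log2 fold change was −0.73 ± 0.28 and was not called (edgeR adjusted p = 0.0673), but it was called without CD4 IEL replicate 2 (−0.95, edgeR adjusted p = 0.0314) and without CD8αα from CD8αβ replicate 3 (−0.73, edgeR adjusted p = 0.0295). It was also called with only the groups compared (edgeR adjusted p = 0.025), by library totals alone (0.0429) and by DESeq2 (adjusted p = 0.0465).

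Of the corepressors, Skil was modestly lower in the CD8αα libraries and Ski did not pass the test. Skil (ENSMUSG00000027660, chromosome 3, 31095058 to 31122577, plus strand) encodes SnoN, which is degraded and then re-induced upon TGF-β signalling. It was at 184, 133 and 135 CPM in CD8αα from CD4, against 248, 228 and 220 CPM in CD4 IEL. It was at 160, 142 and 126 CPM in CD8αα from CD8αβ, against 206, 190 and 188 CPM in CD8αβ IEL. All CD8αα libraries lay below their companions. Skil fell 1.54-fold in the CD4 progeny (−0.63 ± 0.15, edgeR adjusted p = 0.00608) and 1.37-fold in the CD8αβ progeny (−0.45 ± 0.15, edgeR adjusted p = 0.0331). The second call was lost without CD8αα from CD8αβ replicate 2 (edgeR adjusted p = 0.082) or replicate 3 (0.139) and without CD8αβ IEL replicate 1 (0.0903). With 1 library per CD8αα group Skil was called in neither progeny (edgeR adjusted p = 0.0516 in the CD4 and 0.237 in the CD8αβ progeny).

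Ski (ENSMUSG00000029050, chromosome 4, 155154075 to 155222592, minus strand) had the most even level. It was at 68.3, 67.1 and 58.8 CPM in CD8αα from CD4, against 82.8, 57.9 and 82.4 CPM in CD4 IEL, and these groups overlapped. It was at 60.3, 56.2 and 52.6 CPM in CD8αα from CD8αβ, against 77.4, 69.2 and 60.9 CPM in CD8αβ IEL, with the highest CD8αα library just under the lowest companion. The log2 fold changes were −0.20 (95% interval −0.56 to 0.16, edgeR adjusted p = 0.412) and −0.29 (−0.65 to 0.06, edgeR adjusted p = 0.208). The intervals hold no change of 2-fold in either direction.

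**Figure D2:**
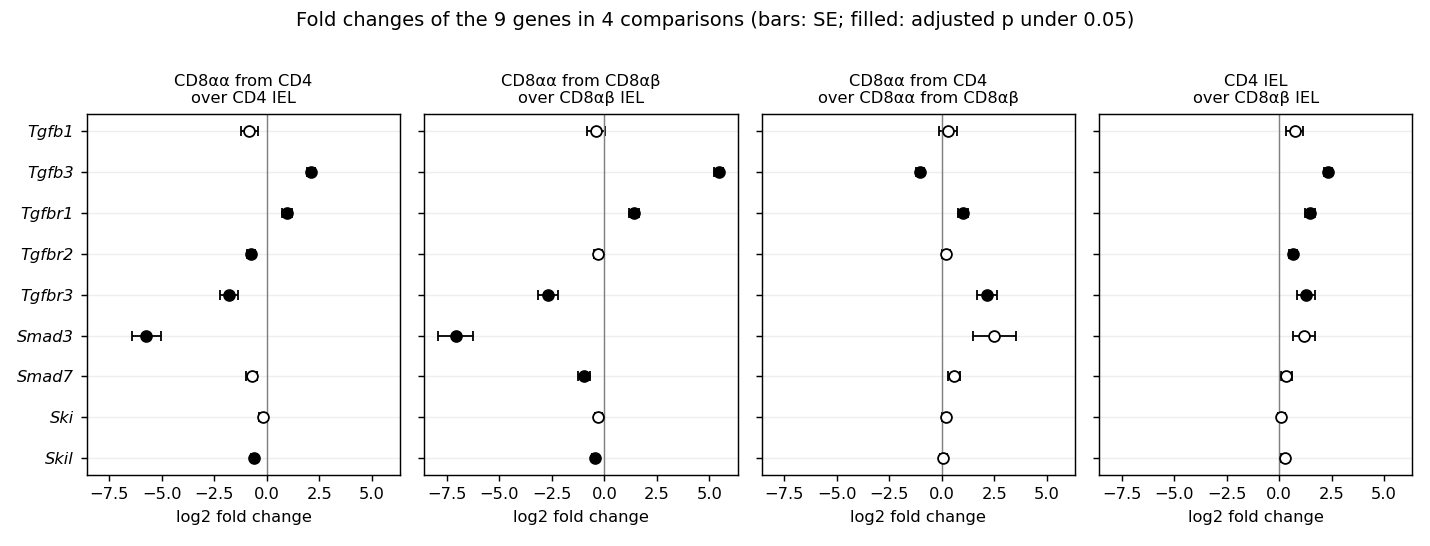
Log2 fold changes of the 9 genes (horizontal axis) in 4 comparisons, 1 panel each, with SE bars; filled circles have an adjusted p under 0.05 in edgeR's quasi-likelihood test. Smad3 lay at −5.75 and −7.08 and Tgfb3 at 2.09 and 5.45 in the first 2 panels, where the other genes lay between −2.68 and 1.40.

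Between the CD8αα groups, 3 of the 9 genes were called, against 4.33% of all genes tested (1.87% higher and 2.46% lower in CD8αα from CD4). Besides Tgfb3, these were Tgfbr1, 2.05-fold higher in CD8αα from CD4 (1.03 ± 0.24, edgeR adjusted p = 0.0278), and Tgfbr3, 4.5-fold higher (2.17 ± 0.48, edgeR adjusted p = 0.0232). Thus the libraries labelled CD8αα from CD4 had less Tgfb3 and more Tgfbr1 and Tgfbr3 transcript than those labelled CD8αα from CD8αβ. Tgfb1, the other ligand gene of the 9, was not called (0.30 ± 0.42, edgeR adjusted p = 0.77). The Tgfbr1 call was lost without CD8αα from CD4 replicate 1 (edgeR adjusted p = 0.123) or 2 (0.086) and without CD8αα from CD8αβ replicate 2 (0.114) or 3 (0.106). The Tgfbr3 call was lost without CD8αα from CD4 replicate 1 (edgeR adjusted p = 0.101) and without CD8αα from CD8αβ replicate 1 (0.0649) or 2 (0.111). With 1 library per group, those with Y-linked transcripts, the 3 calls were lost, and the values were 1.38 for Tgfbr1 and 2.59 for Tgfbr3. The share of all genes called in that fit is not given here. This comparison shares its libraries with those above.

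Between the companions, 4 of the 9 genes were higher in CD4 IEL than in CD8αβ IEL, where 29% of all genes tested were called, 12.9% higher and 16% lower. They were Tgfb3 and all 3 receptor genes. Tgfbr1 was 2.77-fold higher (1.47 ± 0.25, edgeR adjusted p = 8.61e-04), Tgfbr2 1.57-fold (0.66 ± 0.20, edgeR adjusted p = 0.0241) and Tgfbr3 2.46-fold (1.3 ± 0.43, edgeR adjusted p = 0.0371). Smad3 was 2.26-fold higher and not called (1.18 ± 0.52, edgeR adjusted p = 0.103), but it was called without CD8αβ IEL replicate 1 (1.64, edgeR adjusted p = 0.0453) and without CD8αα from CD4 replicate 2 (1.18, edgeR adjusted p = 0.0313). Smad3 was called as well with the replicate block (edgeR adjusted p = 0.046), with only the groups compared (0.0302) and with 1 library per CD8αα group in the model (0.0359). The Tgfbr2 call was lost without CD4 IEL replicate 1 (edgeR adjusted p = 0.0901) and without CD8αβ IEL replicate 2 (0.43, 0.0692). It was lost too with only the groups compared (0.0681) and with 1 library per CD8αα group in the model (0.0775). The Tgfbr3 call was lost without any 1 of the 3 CD4 IEL libraries (edgeR adjusted p = 0.0537 to 0.111) and without CD8αβ IEL replicates 1 (0.0616) or 2 (0.108). By library totals alone the all-gene median shifted to 0.13 in this comparison and the share of calls that were higher in CD4 IEL went to 57.3%, against 44.6% with TMM.

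The groups stood in 3 different orders. For Tgfb3 the order was CD8αα from CD8αβ, CD8αα from CD4, CD4 IEL and CD8αβ IEL, and each neighbouring pair differed. For Tgfbr1 it was CD8αα from CD4 first and CD8αβ IEL last, with CD8αα from CD8αβ and CD4 IEL between them not differing beyond their spread (−0.07, edgeR adjusted p = 0.837). For the other 7 genes CD4 IEL was highest and CD8αβ IEL second, followed by CD8αα from CD4 and CD8αα from CD8αβ. Of these 7 orders, the step between CD8αβ IEL and CD8αα from CD4 passed the test for Smad3 alone (CD8αα from CD4 over CD8αβ IEL, −4.57 ± 0.67, edgeR adjusted p = 1.35e-04). For Skil it was −0.37 (edgeR adjusted p = 0.0618), and it was called by DESeq2 (adjusted p = 0.0401), with the replicate block (0.0261) and without CD8αα from CD4 replicate 1 (−0.56, 0.0122). Set against the companion of the other progeny, 3 genes were called between CD8αα from CD4 and CD8αβ IEL, 1 of them lower, against 39.7% of all genes (20.4% lower), and 7 between CD8αα from CD8αβ and CD4 IEL, against 38.7%. The 7 were Tgfb3, which was higher, and Tgfb1, Tgfbr2, Tgfbr3, Smad3, Smad7 and Skil, which were lower. Tgfb1 was the weakest of them (−1.13 ± 0.42, edgeR adjusted p = 0.0455), and its call was lost without any 1 of 6 libraries, all 3 of CD8αα from CD8αβ among them (adjusted p up to 0.183, without CD4 IEL replicate 3). With 1 library per CD8αα group, those with Y-linked transcripts, the calls of Tgfb1 (−1.77), Tgfbr2 (−1.07) and Smad7 (−1.09) were lost.

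Levels can be compared between genes per exon length, as CPM per kilobase of annotated exons. On this scale Tgfb3 was at 65.5 ± 4.95 in CD8αα from CD4, above 94.9% of the genes tested, and at 135 ± 4.57 in CD8αα from CD8αβ, above 97.7% (SD, n = 3 each). In CD4 IEL it was at 15.4 ± 4.13 and in CD8αβ IEL at 3.07 ± 0.617, above 34.4% of genes. It was thus the most abundant of the 9 transcripts in both CD8αα groups, and the least abundant but 1 in CD8αβ IEL, above Tgfb1 at 1.72 ± 0.751. In the companions Tgfbr2 was the most abundant, at 55.6 ± 8.72 in CD4 IEL and 35.3 ± 10.2 in CD8αβ IEL. Smad3 was above 74.8% of genes in CD4 IEL and above 2.18% in CD8αα from CD8αβ.

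**Figure D3:**
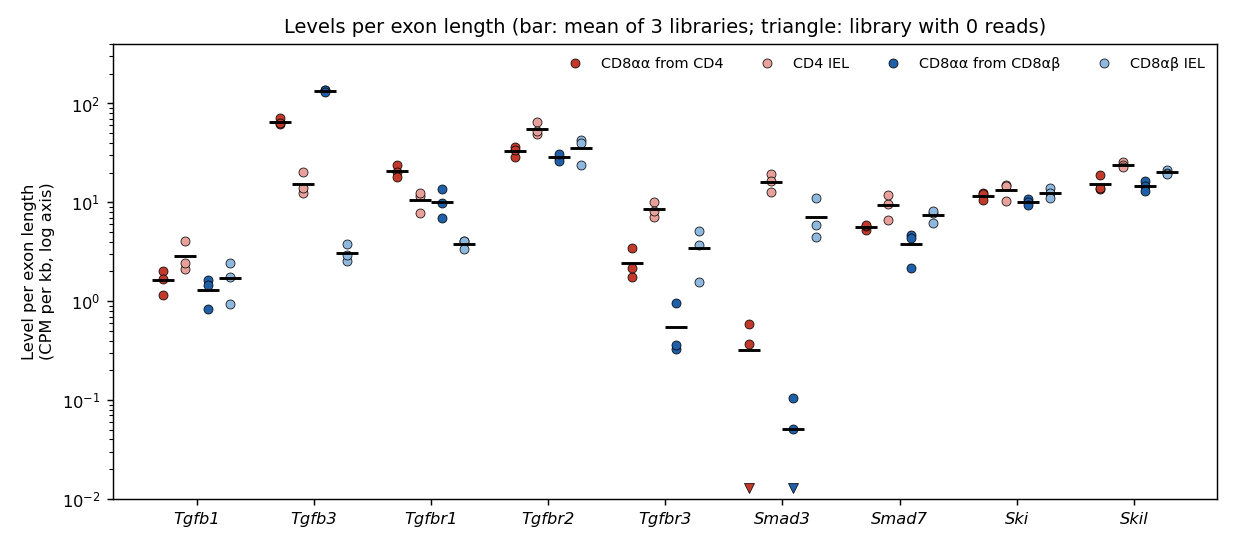
Levels of the 9 genes per exon length in each library (CPM per kilobase, log axis), coloured by group in the order of the legend, with bars at the mean of 3 libraries and triangles at the lower edge for libraries with 0 reads. Tgfb3 and Smad3 span the widest ranges, and Ski lies between 9.46 and 14.9 in all 12 libraries.

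Within a library the balance between related transcripts differed by group. The ratio of Tgfb3 to Tgfb1 per exon length was 34.9 to 53 in CD8αα from CD4 and 3.38 to 8.35 in CD4 IEL, and it was 84.3 to 163 in CD8αα from CD8αβ and 1.04 to 3.08 in CD8αβ IEL. Tgfb3 made up 97.6% ± 0.483 of their sum in CD8αα from CD4 and 83.9% ± 6.17 in CD4 IEL, and 99% ± 0.31 in CD8αα from CD8αβ and 64.8% ± 12.6 in CD8αβ IEL (SD, n = 3 each). So Tgfb3 transcript exceeded Tgfb1 in all 12 libraries on this scale. In CD8αβ IEL replicate 1 the ratio was only 1.04, from 62 reads of Tgfb3 and 89 of Tgfb1. There the order of the 2 genes depends on the exon lengths used. The ratio of type II to type I receptor transcript was 1.19 to 1.89 in CD8αα from CD4 and 3.96 to 6.67 in CD4 IEL, and 2.06 to 3.84 in CD8αα from CD8αβ and 5.8 to 11.7 in CD8αβ IEL. Neither pair of groups overlapped. The ratio of Skil to Ski was 1.14 to 1.54 in CD8αα from CD4 and 1.53 to 2.26 in CD4 IEL, which overlapped, and 1.37 to 1.52 in CD8αα from CD8αβ and 1.53 to 1.77 in CD8αβ IEL, which did not.

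**Figure D4:**
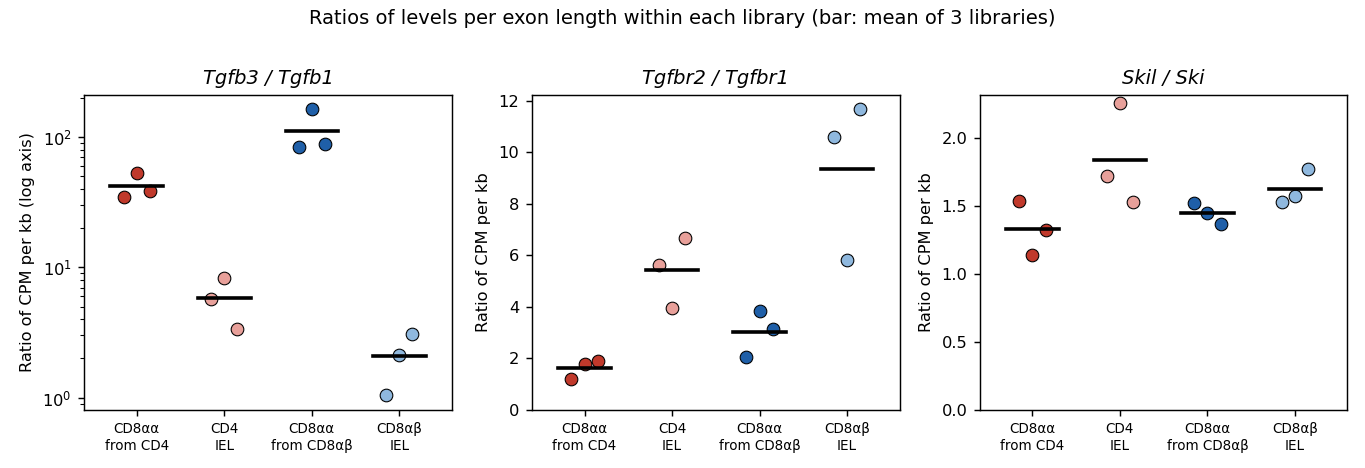
Ratios of levels per exon length within each library, for Tgfb3 over Tgfb1 (log axis), Tgfbr2 over Tgfbr1 and Skil over Ski, by group, with bars at the mean of 3 libraries. The CD8αα libraries stand above their companions in the first panel and below them in the second.

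For each of the 9 genes the pair of genes with the most similar pattern was found by the root mean square difference of centred log2 CPM over the 12 libraries. The values are a description, and the libraries share their scaling and groups. Closest to Tgfb3 were Pecam1 (0.41), an adhesion receptor of endothelium and leukocytes, and Plcg2 (0.48), a phospholipase C of immune receptor signalling. Pecam1 was at 540 CPM in CD8αα from CD4, 96.7 in CD4 IEL, 645 in CD8αα from CD8αβ and 25.3 in CD8αβ IEL. Closest to Smad3 were the nuclear receptor gene Rora (0.77), at 9.01, 439, 5.95 and 277 CPM in the same order of groups, and the adhesion receptor gene Cd97 (0.89). Tgfbr3 also had distant neighbours, Slc4a7 (0.62) and Uhrf1bp1l (0.63). Those of the other 6 genes lay at 0.10 to 0.28, such as Tet2, a DNA demethylase gene (0.13), and Sp3 (0.14) for Tgfbr2 and Stard7 (0.10) and Angel2 (0.13) for Skil. The rest were Mtx3 and Trim62 for Tgfbr1, Slc6a6 and Atxn1 for Smad7, Myo1f and Lrp10 for Ski, and Ahdc1 and Hnrnpd for Tgfb1.

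Beyond the 9 genes, 99 other genes of the TGF-β and BMP pathways were listed in 6 roles, and 62 passed the filter. Of these, 6 were higher and 18 lower in CD8αα from CD4 than in CD4 IEL (38.7%, against 28.5% of all genes; edgeR quasi-likelihood test). In CD8αα from CD8αβ 9 were higher and 14 lower than in CD8αβ IEL (37.1%, against 31.2% of all genes). Fewer were called in each progeny with 1 library per CD8αα group, those with Y-linked transcripts. The share of all genes called in that fit is not given here, so the drop is not read as a result about these genes. Between the CD8αα groups 2 were higher and 6 lower in CD8αα from CD4 (12.9%, against 4.33% of all genes). These calls were lost in the fit with 1 library per group.

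Among 11 tested genes of ligands and their activation, 1 was higher and 3 lower in CD8αα from CD4, and 3 were higher and 2 lower in CD8αα from CD8αβ. The shares of all genes called in these comparisons were 28.5% and 31.2%. Furin, the protease that matures TGF-β, was at 131 to 156 CPM in CD8αα from CD4, against 935 to 1369 CPM in CD4 IEL (−3.0 ± 0.19, edgeR adjusted p = 1.22e-07). In the CD8αβ progeny Furin was at 141 to 201 CPM in CD8αα from CD8αβ, against 82.2 to 114 CPM in CD8αβ IEL (0.72 ± 0.18, edgeR adjusted p = 0.00743). The changes of Furin differed by −3.72 ± 0.26 (edgeR interaction adjusted p = 3.91e-06), CD4 IEL alone being high. Lrrc32, which encodes GARP, the cell-surface anchor of latent TGF-β on regulatory T cells, had 0 reads in CD8αα from CD4 and 84 in CD4 IEL, at least 25-fold lower. Nrros, a related anchor of myeloid cells listed as Lrrc33, fell in both progenies (−0.99 ± 0.15, edgeR adjusted p = 2.94e-04, and −1.11 ± 0.15, edgeR adjusted p = 9.76e-05). Of the BMP ligand genes 1 was called higher in each progeny. Bmp6 had 41 reads in CD8αα from CD4 and 0 in CD4 IEL, at least 15.3-fold higher, and Bmp7 was at 20 to 23.1 CPM in CD8αα from CD8αβ against 0.634 to 4.3 CPM in CD8αβ IEL (3.24 ± 0.56, edgeR adjusted p = 5.80e-04). Bmp6 was not called in the CD8αβ progeny (3.02 ± 1.14, edgeR adjusted p = 0.0643), nor Bmp7 in the CD4 progeny (0.62 ± 0.55, edgeR adjusted p = 0.443). In the fit with 1 library per CD8αα group the calls of Bmp6 (edgeR adjusted p = 0.14), Lrrc32 (0.135) and, in the CD8αβ progeny, Furin (0.57, 0.222) were lost. Tgfb2 had 6 reads in all 12 libraries.

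Of 4 other receptor genes tested, 2 were higher and 1 lower in each progeny, against 28.5% and 31.2% of all genes called in the CD4 and CD8αβ progeny. Acvr2a, an activin type II receptor, was at 30.9 to 51 CPM in CD8αα from CD8αβ, against 3.13 to 6.38 CPM in CD8αβ IEL (3.0 ± 0.52, edgeR adjusted p = 5.86e-04). Bambi, a decoy receptor without a kinase, was at 11.3 to 14 CPM in CD8αα from CD4, against 1.57 to 5.39 CPM in CD4 IEL (1.86 ± 0.37, edgeR adjusted p = 0.00186). Bmpr1a, a BMP type I receptor, had 0 reads in CD8αα from CD4 and 51 in CD4 IEL, at least 15.2-fold lower. In the CD4 progeny Acvr2a was just called (1.33 ± 0.47, edgeR adjusted p = 0.0489), which was lost without any 1 of 10 libraries (adjusted p up to 0.142), and in the CD8αβ progeny Bambi was not called (0.73 ± 0.34, edgeR adjusted p = 0.128). Bmpr1a had 1 read in CD8αα from CD8αβ and 31 in CD8αβ IEL (edgeR adjusted p = 0.031), a call lost without any 1 of the CD8αα from CD8αβ libraries or CD8αβ IEL replicate 1 (adjusted p = 0.0629 to 0.205). From 1 library per CD8αα group the calls of Acvr2a (1.07 and 2.61) and Bmpr1a (−7.17 and −6.51) in the CD4 and CD8αβ progeny were lost. The call of Bambi in the CD4 progeny (2.05) was lost too. The 4 other SMADs tested, Smad1, Smad2, Smad4 and Smad5, were not called in either progeny by edgeR or DESeq2. At an unadjusted p under 0.05 edgeR had 0 of the 4 in the CD4 progeny; the CD8αβ progeny had 1, Smad5 (0.65 ± 0.30). Smad2, the partner of SMAD3 at the receptor, was at 64.6 ± 8.53 CPM in CD8αα from CD4, against 69 ± 19.1 in CD4 IEL, and at 72.5 ± 0.886 in CD8αα from CD8αβ and 63.9 ± 7.87 in CD8αβ IEL (SD, n = 3 each). Smad4, the common partner, was at 23.6 ± 5.1 CPM in CD8αα from CD4, against 23.1 ± 3.55 CPM in CD4 IEL. These SMAD levels were chosen after their values were seen.

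Of 12 cofactor genes 4 were lower in CD8αα from CD4 and 3 were lower in CD8αα from CD8αβ, with 0 higher by edgeR or DESeq2 (0 also at an unadjusted p under 0.05). The shares of all genes called lower were 13.5% and 15.1%. Zeb2, a SMAD-binding repressor, was at 5.46 to 7 CPM in CD8αα from CD4, against 23.4 to 36.1 CPM in CD4 IEL (−2.28 ± 0.49, edgeR adjusted p = 0.00334), and fell by 3.41 on the log2 scale in the CD8αβ progeny (edgeR adjusted p = 4.64e-04). Tgif1, a SMAD corepressor, fell by 1.22 and 1.32 on the log2 scale in the CD4 and CD8αβ progeny (edgeR adjusted p = 6.15e-04 and 2.76e-04). Of 18 turnover genes 1 was higher and 5 lower in CD8αα from CD4, and 2 were higher and 4 lower in CD8αα from CD8αβ. The shares of all genes called in either direction were 28.5% and 31.2%, near those of the turnover genes. Nedd4l, a ubiquitin ligase for receptors and phosphorylated SMADs, was at 19.1 to 33 CPM in CD8αα from CD4, against 0 to 2.61 CPM in CD4 IEL (4.71 ± 0.66, edgeR adjusted p = 1.15e-04). It was at 28.4 to 36.8 CPM in CD8αα from CD8αβ, against 3.49 to 4.85 CPM in CD8αβ IEL (2.96 ± 0.57, edgeR adjusted p = 0.00125). Fkbp1a, whose protein holds the type I receptor inactive, fell in both progenies (−0.60 ± 0.13, edgeR adjusted p = 0.00285, and −0.88 ± 0.13, edgeR adjusted p = 1.15e-04). Ppp1r15a fell in both too (−1.22 ± 0.13, edgeR adjusted p = 1.44e-05, and −0.43 ± 0.13, edgeR adjusted p = 0.0235). Its changes differed by −0.79 ± 0.19 (edgeR interaction adjusted p = 0.0426). Leaving out 1 library could undo its CD8αβ progeny call (edgeR adjusted p up to 0.105) and its interaction call (up to 0.102). With 1 library per CD8αα group these values were −0.28 and −0.74, and both calls were lost. The calls of Tgif1 in the CD4 progeny (edgeR adjusted p = 0.0604), Nedd4l in the CD8αβ progeny (0.104) and Fkbp1a in both (0.162 and 0.0683) were lost with 1 library per CD8αα group.

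Of 13 tested genes known to respond to TGF-β, 2 were higher and 5 lower in CD8αα from CD4, and 2 were higher and 4 lower in CD8αα from CD8αβ. The shares of all genes called were 28.5% and 31.2%. The higher ones were the same pair in both progenies. Itgae was at 3818 to 4521 CPM in CD8αα from CD4, against 2090 to 2330 CPM in CD4 IEL (0.88 ± 0.13, edgeR adjusted p = 1.85e-04), and at 3936 to 4001 CPM in CD8αα from CD8αβ, against 1486 to 2109 CPM in CD8αβ IEL (1.18 ± 0.13, edgeR adjusted p = 1.33e-05). Runx3, a transcription factor gene of CD8 and intraepithelial T cells, was 0.50 ± 0.14 higher in the CD4 progeny (log2, edgeR adjusted p = 0.0184) and 0.67 ± 0.14 higher in the CD8αβ progeny (edgeR adjusted p = 0.00293). In the CD4 progeny its call was lost without CD4 IEL replicate 1 (edgeR adjusted p = 0.0959) and CD8αα from CD4 replicates 2 (0.052) and 3 (0.0539). These 2 genes were chosen after their values were seen. Foxp3, the regulator of regulatory T cells, was at 6.66 to 7.91 CPM in CD8αα from CD4, against 19.8 to 41.6 CPM in CD4 IEL (−2.13 ± 0.30, edgeR adjusted p = 1.25e-04), and it was not called in the CD8αβ progeny (−0.46 ± 0.29, edgeR adjusted p = 0.269). Rgs16, an inhibitor of G protein signalling, was at 15.2 to 30.2 CPM in CD8αα from CD8αβ, against 222 to 460 CPM in CD8αβ IEL (−3.80 ± 0.34, edgeR adjusted p = 2.02e-06), and it fell in the CD4 progeny as well (−1.96 ± 0.34, edgeR adjusted p = 7.20e-04). Cdkn1a, the cell cycle inhibitor p21, was at 13.1 to 25 CPM in CD8αα from CD4 and 78.9 to 102 CPM in CD8αα from CD8αβ (−2.24 ± 0.30, edgeR adjusted p = 0.00138). Against the companions it fell in the CD4 progeny (−1.94 ± 0.29, edgeR adjusted p = 2.35e-04). In the CD8αβ progeny it was not called (−0.57 ± 0.28, edgeR adjusted p = 0.142). With 1 library per CD8αα group the calls of Cdkn1a between the CD8αα groups (−2.03) and in the CD4 progeny (−1.58) were lost. The call of Runx3 in the CD4 progeny (0.52) was lost too. Id3 was at 2.99 to 20.6 CPM in CD8αα from CD8αβ, against 47.3 to 90.1 CPM in CD8αβ IEL (−2.79 ± 0.53, edgeR adjusted p = 0.00109). It was not called in the CD4 progeny (−0.59 ± 0.60, edgeR adjusted p = 0.504). Genes of this list thus moved in both directions. The list was not split into genes that TGF-β induces and genes that it represses, so the directions give no reading of signalling.

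**Figure D5:**
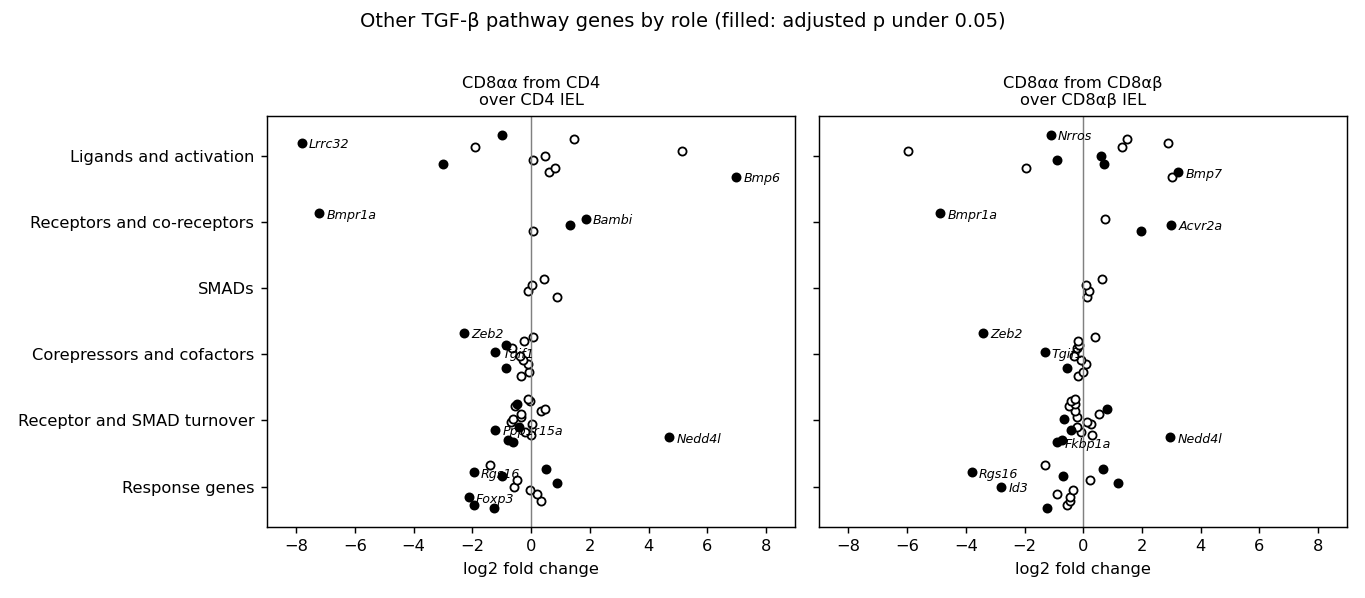
Log2 fold changes of 62 other pathway genes in the CD4 progeny (left) and the CD8αβ progeny (right) by role, with filled circles at an adjusted p under 0.05 and the 2 called genes with the largest change in a role named. Called genes lie on both sides of 0 among ligands and receptors, while the 4 SMADs lie between −0.10 and 0.88; points beyond 4 in either direction other than Nedd4l rest on few or 0 reads in a group, so their place depends on the prior count of the fit.

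Markers of other cells moved with the CD8αα label for some lists. Of 10 natural IEL markers 8 were higher and 1 lower in CD8αα from CD4, and 7 were higher and 1 lower in CD8αα from CD8αβ. Of 9 NK and ILC markers 1 was higher and 4 lower in CD8αα from CD4, and 2 were higher and 4 lower in CD8αα from CD8αβ. Of 2 tested B and plasma cell markers 1 was higher and 1 lower in CD8αα from CD4, and 1 was higher in CD8αα from CD8αβ. The 1 tested mast cell marker was higher in both. Among all genes 28.5% and 31.2% were called in the CD4 and CD8αβ progeny. The summed level of 10 stromal and endothelial markers was 499 to 591 CPM in CD8αα from CD4 and 112 to 138 in CD4 IEL, and 603 to 764 in CD8αα from CD8αβ and 22.4 to 39.2 in CD8αβ IEL. Pecam1 made up nearly all of it in the CD8αα groups. Col1a2 added 8.85 to 13.9 CPM in CD8αα from CD8αβ and had 0 reads in CD8αβ IEL. Pdgfrb added 7.96 to 41.8 CPM in CD4 IEL and Kdr up to 6.97 CPM in CD8αβ IEL. Col3a1, Pdgfra and Dcn were at 0 in all groups and Cdh5 at no more than 1.48 CPM. Of 5 stromal and endothelial markers tested, 1 was higher and 1 lower in CD8αα from CD4. In CD8αα from CD8αβ 2 were higher and 0 lower. The summed level of 10 myeloid markers was 992 to 1204 CPM in CD8αα from CD4 and 82.8 to 177 in CD4 IEL. It was 555 to 744 in CD8αα from CD8αβ and 178 to 288 in CD8αβ IEL. In the CD8αα groups it came mostly from the integrin genes Itgax and Itgam. In CD8αβ IEL the means were 147 CPM for Itgax, 55.9 for Cd68 and 2.66 for Itgam. Of 7 myeloid markers tested, 2 were higher and 0 lower in CD8αα from CD4. In CD8αα from CD8αβ 2 were higher and 3 lower. S100a8 and S100a9 were at 0 in all groups, and Fcgr1 was at 0 in both CD8αα groups. The summed level of 16 epithelial markers was 479 to 595 CPM in CD8αα from CD4 and 102 to 206 in CD4 IEL, and 602 to 1045 in CD8αα from CD8αβ and 298 to 814 in CD8αβ IEL, and 2 and 3 of 13 tested were higher in the CD4 and CD8αβ progeny. The part of these markers in the TGF-β results was not tested.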

How the data were processed

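The samples were 12 bulk RNA-seq libraries, 3 in each of 4 groups taken from the titles. The authors deposited whole-number read counts per gene, not normalised, from reads aligned with HISAT2 2.1.0 to mm10, per the submitters' processing notes. The counting program, its strand setting and its handling of multiply mapped reads were not given in the sources used here. The table had 25965 rows; of rows that shared a symbol the one with the highest total was kept, which left out 66.

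Genes were kept by filterByExpr (minimum count 10, minimum total 15; 12622 genes), scaled by TMM and tested with edgeR 4.0.16 in R 4.3.3 (quasi-likelihood, two-sided, 1 mean per group over all 12 libraries, Benjamini-Hochberg over all genes, called at 0.05). SE was taken from the fold change and its F statistic. The difference between the CD8αα changes of the progenies was tested in the same model. The test was tried on simulated counts first. CPM use the TMM-scaled totals, and exon lengths are those of GENCODE M21. The fold of a gene with 0 reads in a group is a lower bound against 3 counts over the group. Intervals and floors from counts cover counting error only. Libraries of a group differed by a chi-square of 11.4 to 60.2 per gene, so each counted as 1 replicate.

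Alternatives were other scalings, no filter, summed rows, a replicate block, only the groups compared, DESeq2 1.42.0, each library left out in turn, and only CD8αα libraries with Y-linked transcripts. The 9 genes and all lists were chosen with earlier results of these data known. Named were the 9 genes, 2 closest genes for each of the 9, and called genes of the wider lists. The last were taken from the up to 2 per role with the largest change in a comparison. Not all of those in the comparisons between origins are named. Any other named gene was chosen after its values were seen. Promoter sequences are from RefSeq.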

Additional observations from a re-analysis of the deposited data

Results flagged for a closer look

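The change of Tgfb3 transcript between CD8αα and companion cells differed between the progenies by −3.36 on the log2 scale (CD4 progeny minus CD8αβ progeny), which is flagged because the test of that difference passed (edgeR interaction adjusted p = 1.58e-05). The rise was 2.09 in the CD4 progeny, where the companion CD4 IEL had 41.5 to 68 CPM, and 5.45 in the CD8αβ progeny, where CD8αβ IEL had 8.6 to 12.7 CPM. All 3 CD8αα libraries stood above all 3 companions in each progeny.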

How the results depend on the processing

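Of the log2 fold changes of the 9 genes in 7 tests, 1180 values under an alternative kept direction and side of the threshold, 40 lost the call, 18 gained it and 12 changed sign. With only the CD8αα libraries that had Y-linked transcripts, fewer of the 9 genes were called in both progenies and between the CD8αα groups. The same held between CD8αα from CD8αβ and CD4 IEL, and for the wider genes in both progenies and between the CD8αα groups. Fewer libraries entered these fits. The shares of all genes called in these fits, and in those that left out 1 library, are not given here. Leaving out 1 library gave 6 to 7 and 4 to 7 of the 9 genes in the CD4 and CD8αβ progeny, 1 to 3 between the CD8αα groups, 2 to 5 between the companions, 3 to 4 between CD8αα from CD4 and CD8αβ IEL, 6 to 8 between CD8αα from CD8αβ and CD4 IEL, and 1 in each case for the interaction. The wider genes called were then 20 to 28, 15 to 24, 4 to 10 and 16 to 23 in the first 4 comparisons. All values that changed sign were small and not called, and the cause was not tested. They were Skil between the CD8αα groups (−0.07 with only Y-linked CD8αα libraries, −0.06 without CD8αα from CD4 replicate 1, −0.00 without CD8αα from CD8αβ replicate 3, −0.06 to 0.17 over all left-out libraries), Tgfb1 (0.10 and 0.24, without CD8αα from CD4 replicate 2 and CD8αβ IEL replicate 1; −0.40 to 0.24 over left-out libraries) and Tgfbr2 (0.07, without CD8αβ IEL replicate 1; −0.32 to 0.07) between CD8αα from CD4 and CD8αβ IEL, and Tgfbr1 between CD8αα from CD8αβ and CD4 IEL (0.00 and 0.15, without replicate 2 of CD4 IEL and of CD8αα from CD8αβ, in a range of −0.34 to 0.15). In the interaction they were Tgfb1 (0.24) and Ski (−0.04) with only Y-linked CD8αα libraries, Ski (−0.03, range −0.03 to 0.21) without CD4 IEL replicate 2 and Smad7 (−0.04, range −0.04 to 0.44) without CD8αα from CD8αβ replicate 3. Library totals alone moved the share of higher calls among all genes to 58.5% (43.1% with TMM) between the CD8αα groups and to 40.7% (54.1% with TMM) between CD8αα from CD8αβ and CD4 IEL, where the all-gene median moved to −0.13. Samples of the same number share only that number in the labels. Same-numbered deviations correlated at 0.0978 to 0.326 between CD8αα from CD8αβ and CD8αβ IEL, and other-numbered ones at −0.257 to 0.0577. In other pairs of groups the values were −0.0689 to 0.0874 for the same number and −0.101 to 0.123 for other numbers. The main model holds no pairing, and whether libraries of the CD8αβ progeny were paired was not tested. With the replicate block Smad3 was called between CD4 IEL and CD8αβ IEL (1.25, adjusted p = 0.046) and Skil between CD8αα from CD4 and CD8αβ IEL (−0.38, adjusted p = 0.0261), and no other call among the 9 genes changed. Depth limits Smad3 in the CD8αα groups, with 33 and 8 reads.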
